A study of Mus musculus with 8 samples.

Results

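Mitochondrial ribosomal protein genes were taken as every row of the deposited expression table whose symbol has the form Mrpl or Mrps followed by a number and at most 1 letter. This gave 78 of 20943 genes, 49 named for the large and 29 for the small subunit of the mitochondrial ribosome. They were measured by poly-A RNA sequencing in 8 mouse malignant peripheral nerve sheath tumors (MPNST), aggressive sarcomas of the Schwann cell lineage. The 3 PRC2 loss tumors arose in mice with Plp-CreERT and floxed alleles of 3 genes, Eed(f/f) together with Cdkn2a(f/f) and Nf1(f/f), and the 5 PRC2 wildtype tumors in mice with Plp-CreERT and only the Cdkn2a(f/f) and Nf1(f/f) alleles. Loss of the Ras inhibitor Nf1 and of the cell cycle inhibitor locus Cdkn2a was thus shared by every tumor and, by genotype, only Eed, which encodes an essential component of the chromatin silencing complex PRC2, separated the groups. The labels add that PRC2 loss tumors are Eed(-/-) and that both groups are Cdkn2a(-/-) and Nf1(-/-). Tamoxifen (0.4 mg) was given to both groups over days 0 to 3 of life, and because Plp-CreERT acts in Schwann lineage cells, stromal, immune and vascular cells in each tumor were expected to keep intact alleles. The codes of the tumors give 2 animal numbers for PRC2 loss and 3 for wildtype, and every PRC2 loss sample, but no wildtype sample, is described by a nerve. The values are quantile-normalized log2 gene counts, called log2 values here.

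Mitochondria keep their own ribosome, which translates the few respiratory chain proteins encoded in mitochondrial DNA. All of its proteins are encoded in the nucleus, made in the cytosol and imported, and they must be matched to ribosomal RNA made inside the organelle. Some descend from bacterial ribosomal proteins and keep the bacterial number, while others have no bacterial counterpart. Inherited defects in several of them cause combined deficiency of the respiratory chain complexes in humans.

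The labels and the makeup of the tumors were checked first. Eed had log2 values of 8.76, 8.93 and 8.96 in PRC2 loss tumors 1 to 3, against 10.32, 10.33, 10.17, 10.19 and 10.23 in wildtype tumors 1 to 5, a log2 difference of -1.36 (SE 0.115, limma adjusted p = 0.00021; exact two-sided permutation p = 0.0179, the smallest that 56 splits allow). The splits treat tumors that share an animal number as independent. With the tumors of 1 animal number averaged, the limma adjusted p of Eed was 0.0117. A list of 10 myelin and Schwann cell markers had a mean log2 value of 13.35 to 13.96 in PRC2 loss and 6.94 to 9.54 in wildtype tumors, and 9 of its genes were higher. A list of 14 cell cycle genes ranged over 7.36 to 8.37 in PRC2 loss and 10.12 to 11.49 in wildtype tumors, and all 14 were lower. In addition, 7 of 10 macrophage markers were lower (list mean 11.22 to 11.58 in PRC2 loss and 12.21 to 13.24 in wildtype tumors) and 5 of 6 endothelial markers were higher. The mean of 12 skeletal muscle markers was 4.08, 6.02 and 9.15 in PRC2 loss tumors 1 to 3 and 12.38, 11.80, 3.66, 5.40 and 4.51 in wildtype tumors 1 to 5. Wildtype tumors 1 and 2 and PRC2 loss tumor 3 stood apart. All 7 T and NK cell markers measured were lower as well, and none of 12 muscle and 7 adipocyte markers passed the test. No cell cycle, macrophage, myelin, endothelial or T and NK cell marker was at 0 in any tumor, and wildtype tumors 3 and 5 each had 1 muscle marker at 0. These directions were the same with housekeeping centring, which left 4 macrophage and 3 T and NK cell markers lower. The part of these cell types in the results that follow was not tested. The myelin and cell cycle list means did not overlap between the groups, and only PRC2 loss samples are described by a nerve. Makeup and sampling site therefore cannot be told apart from PRC2 status. In bulk tumor RNA, fewer cells of a type and less RNA per cell cannot be told apart.

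On the deposited scale most mitochondrial ribosomal protein genes were lower in PRC2 loss tumors, whereas with tumors centred on housekeeping genes 8 were lower and 6 higher. Of the 78 genes, 50 were lower, 1 (Mrps9) was higher and 27 did not pass the test (limma, Benjamini-Hochberg adjusted p below 0.05 over 20807 genes), against 19.6% of all genes tested called lower, 16% called higher and 35.7% called either way. The median log2 difference of the 78 genes, PRC2 loss minus wildtype, was -0.64, with values from -1.64 to 0.40, while the median of all genes tested was -0.12. The log2 difference was negative for 72 of the 78 genes, against 11530 of the 20807 genes tested. With housekeeping centring it was negative for 50 of the 78. Of the called genes, 12 were at least 2-fold lower. In 55 genes every PRC2 loss tumor lay below every wildtype tumor, and in 2, Mrps9 and Mrpl48, every PRC2 loss tumor lay above. Across all genes tested these patterns were found in 21.4% and 16.9%. The changes were modest in size: the called genes other than those 12 were between 1.3-fold and 1.99-fold lower. None of the 78 genes was listed at 0 in any tumor.

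**Figure D1:**
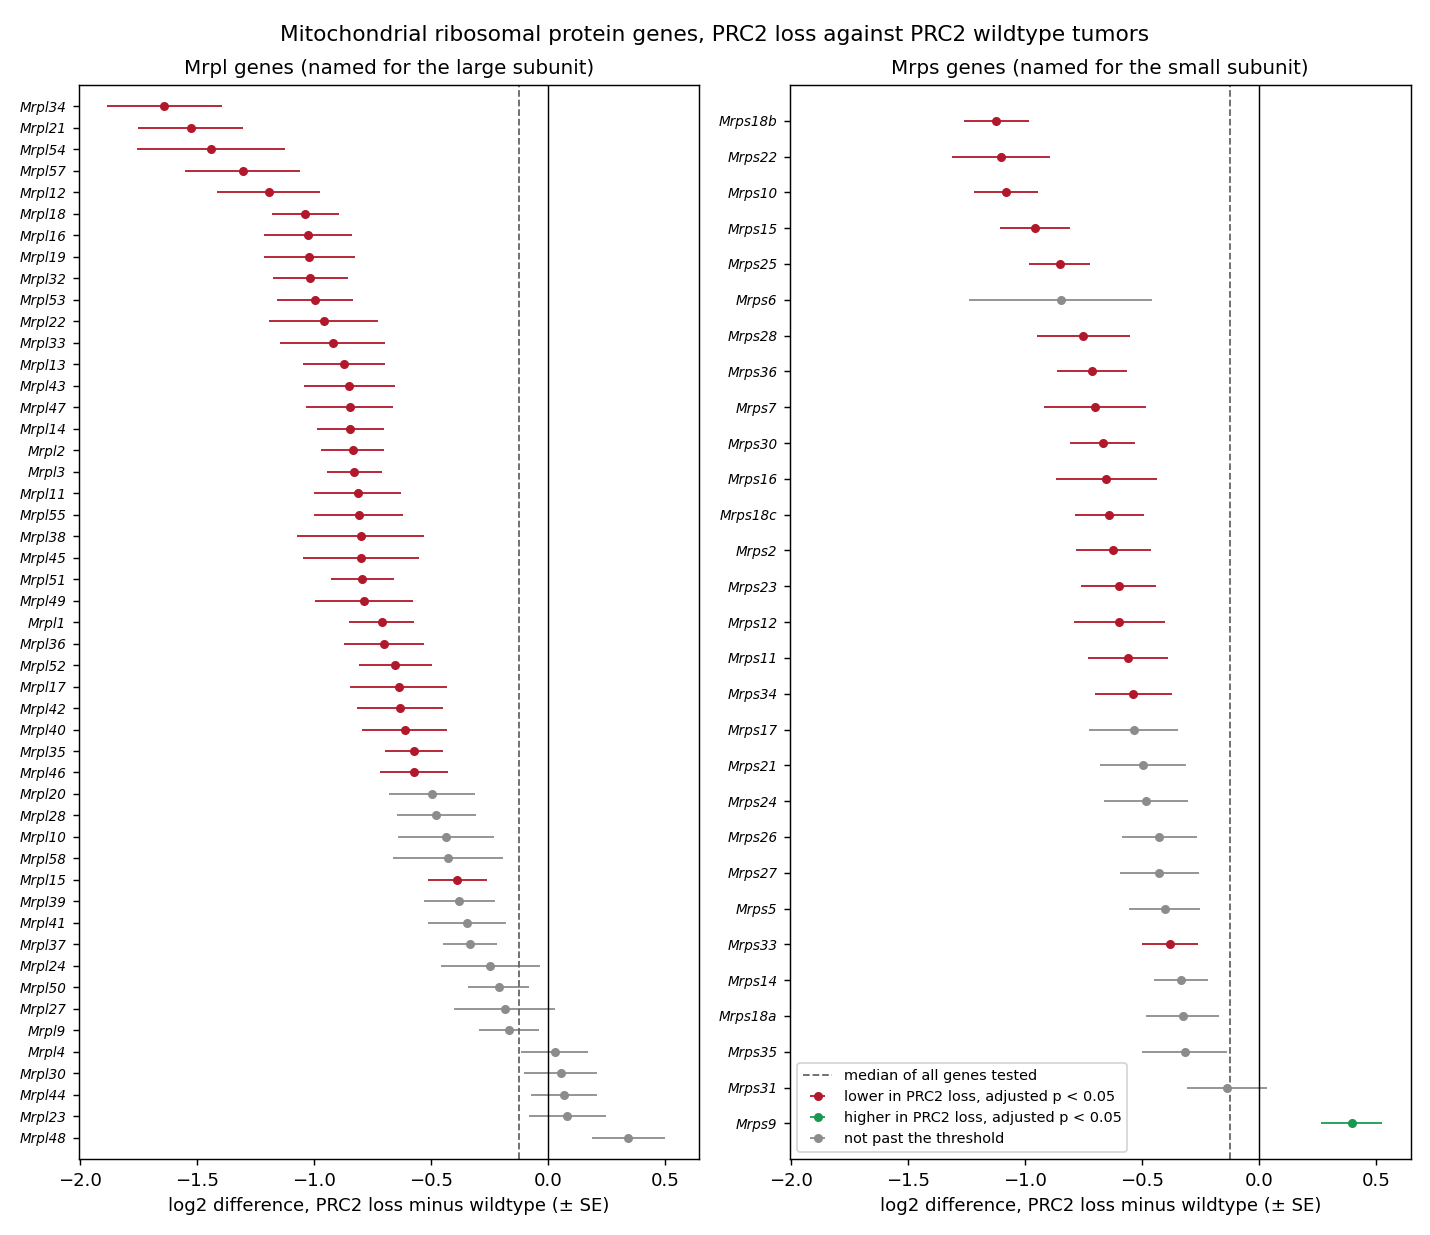
Log2 difference (PRC2 loss minus wildtype, with its standard error) of the 49 Mrpl genes and the 29 Mrps genes, ordered within each panel; color marks the limma call and the dashed line the median of all genes tested. All but 6 genes lie left of 0, and Mrps9 is the sole gene called higher; with tumors centred on housekeeping genes 28 lie right of 0.

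The size of this shift depends on what the tumors are scaled to. Quantile normalization sets the distribution of each tumor to nearly the same shape. The number of genes at 0 still differed, from 1822 to 2113 in PRC2 loss and from 2686 to 3372 in wildtype tumors. What lies behind this difference was not tested. Centring each tumor instead on 15 housekeeping genes, whose mean differed between PRC2 loss and wildtype tumors by -0.53 on the log2 scale, moved the median of all genes to 0.41 and that of the 78 genes to -0.10, and left 8 genes lower and 6 higher (8.37% and 34.5% of all genes tested). The gap between these medians, -0.51, is the same on both scales by construction, since centring adds 1 constant to all genes of a tumor. Of these housekeeping genes 8, Actb and Pgk1 among them, were themselves called lower in PRC2 loss. The genes that stayed lower under this centring were Mrpl34, Mrpl21, Mrpl54, Mrpl57, Mrpl12, Mrps18b, Mrps10 and Mrps15.

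Seen tumor by tumor on the deposited scale, the shift was present in each PRC2 loss sample. The median log2 value of the 78 genes was 9.31, 9.40 and 9.47 in PRC2 loss tumors 1 to 3, against 9.95, 9.77, 9.87, 10.07 and 10.03 in wildtype tumors 1 to 5, and the groups did not overlap. Of the 78 genes, 76, 75 and 70 lay below their own wildtype mean in PRC2 loss tumors 1, 2 and 3. In the wildtype tumors the same count was 43, 58, 57, 17 and 21 for tumors 1 to 5, with tumor 4 the highest of the group. These counts were not made over all genes or with housekeeping centring. The spread between tumors was small for most genes, with a median SD of 0.15 among PRC2 loss and 0.20 among wildtype tumors on the log2 scale.

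**Figure D2:**
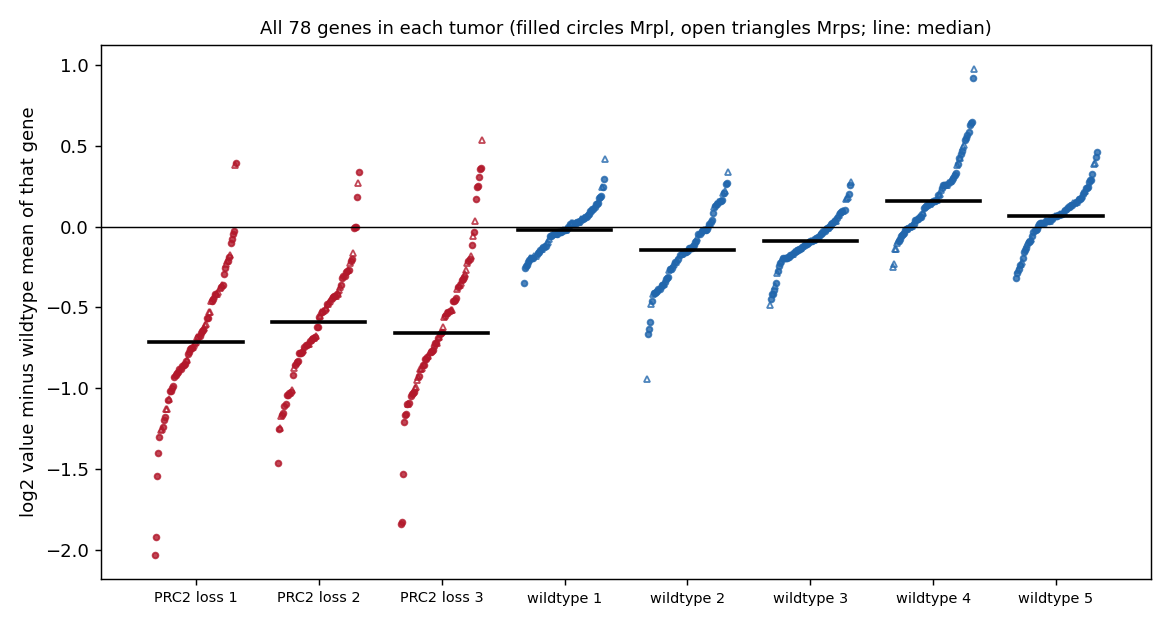
Log2 value of each of the 78 genes minus that gene's wildtype mean, in every tumor, sorted within the tumor; the black line is the median. The medians are -0.72, -0.59 and -0.65 in PRC2 loss tumors 1 to 3 and lie between -0.15 and 0.16 in the wildtype tumors; with tumors centred on housekeeping genes the median difference of the 78 genes is -0.10.

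Among the large subunit genes 33 of 49 were lower and none was higher, with a median log2 difference of -0.71 (with housekeeping centring 5 lower and 5 higher, median -0.18). The 4 with the largest falls were Mrpl34, Mrpl21, Mrpl54 and Mrpl57. Mrpl34, the counterpart of a small bacterial large subunit protein, had log2 values of 7.19, 7.95 and 7.27 in PRC2 loss tumors 1 to 3, against 8.90, 8.89, 9.14, 9.07 and 9.54 in wildtype tumors 1 to 5. It was 3.11-fold lower in PRC2 loss (log2 difference -1.64, SE 0.245, limma adjusted p = 0.0018), and the groups lay far apart. Mrpl21, also of bacterial descent, had 8.08, 8.64 and 9.01 in PRC2 loss and 10.12, 9.76, 10.10, 10.26 and 10.27 in wildtype tumors. It was 2.88-fold lower (log2 difference -1.53, SE 0.224, limma adjusted p = 0.00169), with PRC2 loss tumor 1 the lowest sample. Mrpl54, a protein without bacterial counterpart, had 8.43, 8.72 and 8.44 in PRC2 loss and 9.73, 9.34, 10.07, 10.89 and 9.82 in wildtype tumors. It was 2.71-fold lower (log2 difference -1.44, SE 0.316, limma adjusted p = 0.00908). Its wildtype values were spread widely, with tumor 4 at the top, but no PRC2 loss tumor reached them. Mrpl57, formerly called Mrp63 and likewise without bacterial counterpart, had 8.005, 8.52 and 7.48 in PRC2 loss and 9.05, 9.39, 9.20, 9.34 and 9.55 in wildtype tumors. It was 2.47-fold lower (log2 difference -1.30, SE 0.246, limma adjusted p = 0.00486). In mm10 coordinates Mrpl34 lies on chromosome 8 from 71464959 to 71465747, Mrpl21 on chromosome 19 from 3282901 to 3292837, Mrpl54 on chromosome 10 from 81264713 to 81266934 and Mrpl57 on chromosome 14 from 57826234 to 57829296 (GENCODE M21).

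The stalk that recruits translation factors to the large subunit is built on Mrpl10 and Mrpl11 and carries copies of Mrpl12, which has also been reported to bind the mitochondrial RNA polymerase Polrmt. Mrpl12, on chromosome 11 from 120484613 to 120489065, had log2 values of 9.54, 9.79 and 9.91 in PRC2 loss and 10.88, 10.54, 10.70, 11.51 and 11.07 in wildtype tumors, so that the highest PRC2 loss tumor stood below the lowest wildtype tumor. It was 2.29-fold lower (log2 difference -1.19, SE 0.219, limma adjusted p = 0.00429). Mrpl11 averaged 9.29 ± 0.38 in PRC2 loss and 10.11 ± 0.16 in wildtype tumors (SD, n = 3 and 5). It was 1.76-fold lower (limma adjusted p = 0.0106). Mrpl10 did not pass the test, at 10.54 ± 0.12 in PRC2 loss and 10.97 ± 0.36 in wildtype tumors (SD, n = 3 and 5; limma adjusted p = 0.133). Polrmt itself did not either (log2 difference -0.26, limma adjusted p = 0.423). Mrpl1, the protein of the opposite stalk, was 1.64-fold lower (limma adjusted p = 0.00557).

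A list by role, which may not be complete, held 11 genes. Their proteins belong to the central protuberance, which faces the small subunit, and to the tunnel through which the new peptide leaves. Of these 11, 8 were lower on the deposited scale, against 19.6% of all genes tested. With the tumors of 1 animal number averaged, 2 of the 11 were lower (Mrpl18 and Mrpl17), and with housekeeping centring none was lower and 2 were higher (Mrpl48 and Mrpl23). Of the 5 listed protuberance genes 4 were lower. Mrpl18, counterpart of the bacterial protein that binds ribosomal RNA there, had log2 values of 9.40, 9.26 and 9.07 in PRC2 loss and 10.38, 10.48, 10.25, 10.23 and 10.04 in wildtype tumors. Every PRC2 loss tumor lay well below every wildtype tumor, and the gene was 2.05-fold lower (log2 difference -1.04, SE 0.143, limma adjusted p = 0.00129). Mrpl38, Mrpl40 and Mrpl46 were 1.74-fold, 1.53-fold and 1.49-fold lower. Mrpl38 lost its call in 7 and Mrpl40 in 5 of the 8 fits that leave out 1 tumor (limma adjusted p up to 0.149 and 0.0927, without PRC2 loss tumor 1). The fifth, Mrpl48, had 10.70, 10.64 and 10.61 in PRC2 loss and 10.60, 10.47, 10.08, 10.37 and 10.02 in wildtype tumors. Every PRC2 loss tumor lay above every wildtype tumor, but the margin was small and the test was not passed (log2 difference 0.34, limma adjusted p = 0.12). Of 6 exit tunnel genes 4 were lower, namely Mrpl22 (1.94-fold), Mrpl47 (1.8-fold), Mrpl45 (1.74-fold), the protein that ties the ribosome to the inner membrane, and Mrpl17 (1.56-fold). Of these, Mrpl45 lost its call in 7, Mrpl17 in 6 and Mrpl22 in 2 of those 8 fits. Mrpl24 did not pass, with PRC2 loss tumors at 10.16, 10.30 and 10.96 and wildtype tumors at 10.86, 10.84, 10.33, 10.85 and 10.72: PRC2 loss tumor 3 was the highest of all 8. Mrpl23, whose gene neighbors the imprinted H19 and Igf2 domain, did not pass either, at 10.04 ± 0.33 in PRC2 loss and 9.95 ± 0.12 in wildtype tumors (SD, n = 3 and 5; limma adjusted p = 0.716).

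**Figure D3:**
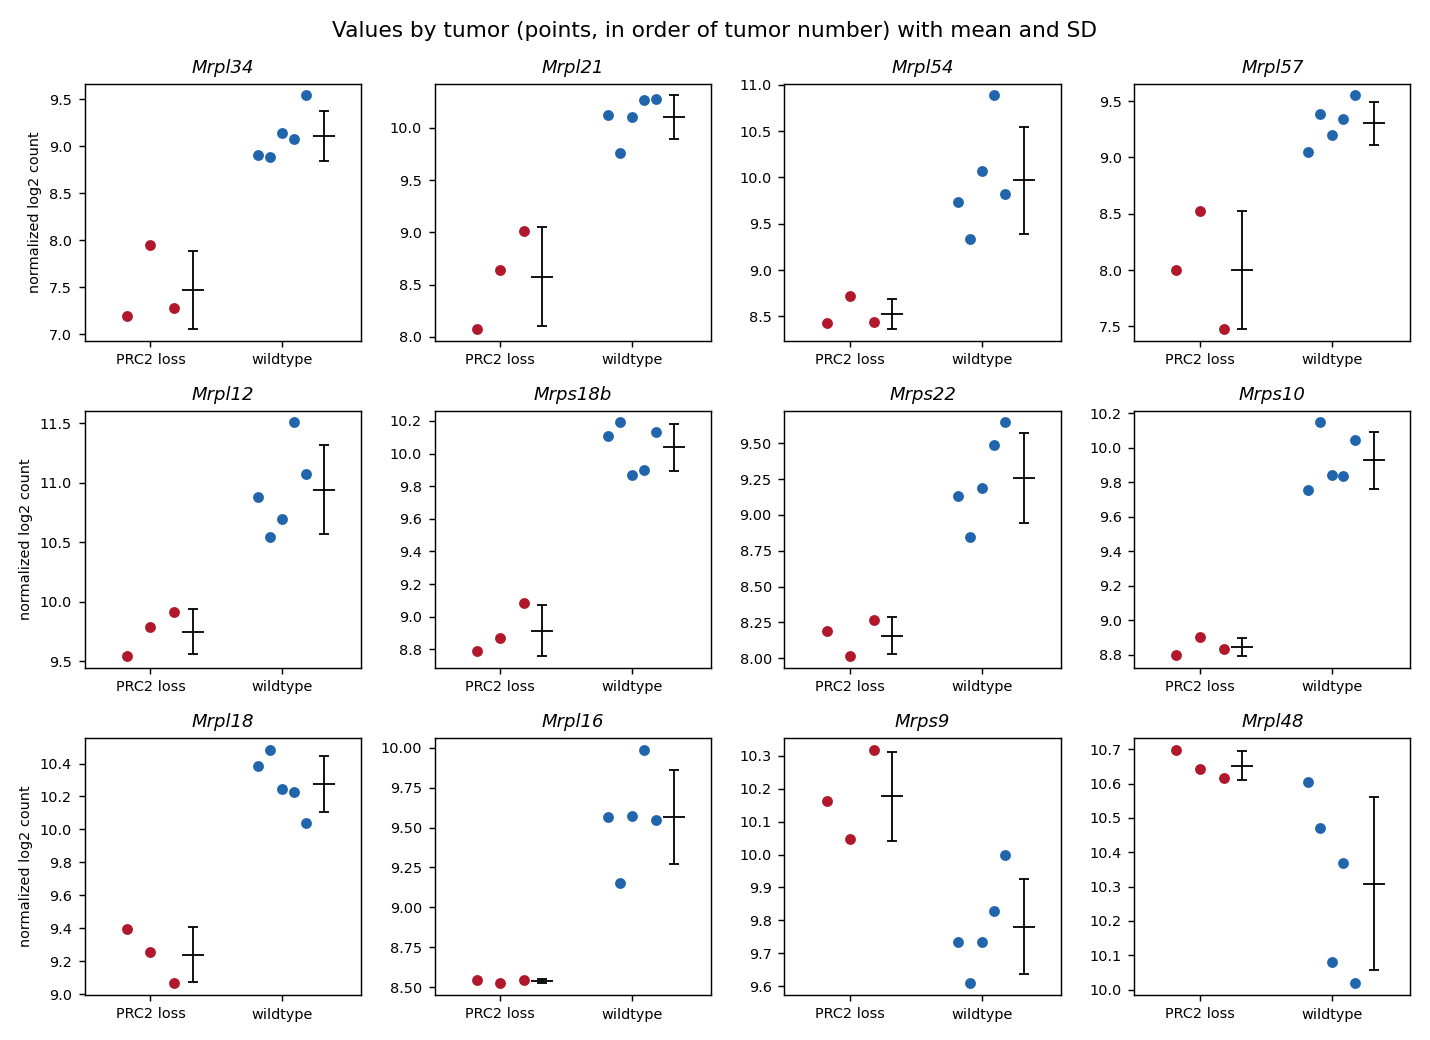
Log2 value in each tumor for the 10 genes with the largest called falls, for Mrps9 and for Mrpl48; points are tumors in order of their number, and the bar to the right of each group is its mean with SD. In the first 10 panels the highest PRC2 loss tumor lies below the lowest wildtype tumor, and in the last 2 the order is turned round. For the first 10 the direction is the same with housekeeping centring, but Mrps22, Mrpl18 and Mrpl16 are then not called lower.

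Of the remaining core proteins of the large subunit, Mrpl2 and Mrpl3, counterparts of bacterial proteins close to the catalytic center, were each 1.78-fold lower, with Mrpl3 at 9.84, 9.92 and 9.84 in PRC2 loss and 10.66, 10.56, 10.60, 10.93 and 10.72 in wildtype tumors (log2 difference -0.83, SE 0.118, limma adjusted p = 0.00147). Human MRPL3 is a gene of inherited respiratory chain deficiency. Mrpl16, which contacts transfer RNA, stood at 8.55, 8.53 and 8.54 in PRC2 loss and 9.57, 9.16, 9.57, 9.99 and 9.55 in wildtype tumors. It was 2.04-fold lower (log2 difference -1.03, SE 0.189, limma adjusted p = 0.00433). Its PRC2 loss values were nearly the same in all 3 tumors. Mrpl19 and Mrpl32 were at least 2-fold lower as well (2.03-fold and 2.02-fold). The 4 large subunit genes with log2 differences closest to 0, none of which passed, were Mrpl4 (0.03, SE 0.144), Mrpl30 (0.05, SE 0.156), Mrpl44 (0.07, SE 0.14) and Mrpl23 (0.08, SE 0.164). Mrpl44, a large subunit protein mutated in a human infantile cardiomyopathy, had 8.95, 8.99 and 9.25 in PRC2 loss and 9.09, 8.97, 8.89, 9.05 and 8.98 in wildtype tumors. Mrpl58, a peptidyl-tRNA hydrolase that frees stalled ribosomes, averaged 9.56 ± 0.22 in PRC2 loss and 9.98 ± 0.39 in wildtype tumors (SD, n = 3 and 5) and did not pass (limma adjusted p = 0.191).

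Among the small subunit genes 17 of 29 were lower and 1 was higher, with a median log2 difference of -0.60 (with housekeeping centring 3 lower and 1 higher, median -0.06). The largest falls were those of Mrps18b, Mrps22 and Mrps10. Mrps18b, on chromosome 17 from 35910379 to 35916389, had log2 values of 8.79, 8.87 and 9.09 in PRC2 loss and 10.11, 10.19, 9.87, 9.90 and 10.13 in wildtype tumors. It was 2.18-fold lower (log2 difference -1.12, SE 0.139, limma adjusted p = 0.000865). It is one of 3 mammalian relatives of the bacterial protein S18. Of its relatives, Mrps18c, at 8.74 ± 0.19 in PRC2 loss and 9.38 ± 0.11 in wildtype tumors (SD, n = 3 and 5), was 1.56-fold lower (limma adjusted p = 0.0108). Mrps18a, which despite its name sits in the large subunit, did not pass the test (log2 difference -0.33, limma adjusted p = 0.139). The differences between these 3 were not tested. Mrps22, a small subunit protein without bacterial counterpart that is mutated in human respiratory chain deficiency, had 8.19, 8.02 and 8.27 in PRC2 loss and 9.13, 8.84, 9.19, 9.49 and 9.64 in wildtype tumors. It was 2.15-fold lower (log2 difference -1.10, SE 0.209, limma adjusted p = 0.00494). Mrps10 had 8.80, 8.90 and 8.83 in PRC2 loss and 9.76, 10.15, 9.84, 9.84 and 10.05 in wildtype tumors, tight values in both groups. It was 2.12-fold lower (log2 difference -1.08, SE 0.136, limma adjusted p = 0.000913).

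Mrps9 was the sole gene called higher. This counterpart of a bacterial protein near the transfer RNA sites, on chromosome 1 from 42851233 to 42905683, had log2 values of 10.16, 10.05 and 10.32 in PRC2 loss and 9.73, 9.61, 9.73, 9.83 and 9.999 in wildtype tumors. Every PRC2 loss tumor lay above every wildtype tumor, by a small margin. The level was 1.32-fold higher (log2 difference 0.40, SE 0.131, limma adjusted p = 0.0454). This call lay close to the threshold and was kept in 8 of 23 alternative fits (limma adjusted p from 0.00177 to 0.187).

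The calls of several further small subunit genes were lost when 1 tumor was left out. Mrps12, which guards decoding accuracy, was 1.51-fold lower (limma adjusted p = 0.0431), although its PRC2 loss values of 8.65, 9.22 and 8.51 touched the range of the wildtype values, 9.44, 9.25, 9.22, 9.58 and 9.45. Mrps2, Mrps7, Mrps16 and Mrps34, all mutated in human respiratory chain deficiency, were 1.54-fold, 1.63-fold, 1.57-fold and 1.45-fold lower. Of the 8 fits that leave out 1 tumor, Mrps16 lost its call in 7, Mrps7, Mrps12 and Mrps34 in 6 each and Mrps2 in 1. Mrps5, a protein near the entry of the messenger RNA channel, did not pass, at 9.41 ± 0.26 in PRC2 loss and 9.81 ± 0.11 in wildtype tumors (SD, n = 3 and 5; limma adjusted p = 0.0682). Mrps6 had as large a difference as many called genes (-0.85) but wildtype values spread over 10.53, 9.52, 9.98, 11.44 and 10.85, and it did not pass (limma adjusted p = 0.126). Mrps36, lower by 1.64-fold, is now regarded as a subunit of the 2-oxoglutarate dehydrogenase complex rather than of the ribosome, and Mrps30, lower by 1.59-fold, sits in the large subunit.

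By origin, the counts were as follows. Of 48 genes with a bacterial counterpart 31 were lower and 1 was higher (median log2 difference -0.68), and of 30 without a counterpart 19 were lower (median -0.61). Of all genes tested 19.6% were lower and 16% higher. With housekeeping centring 8 of the 78 genes were lower and 6 higher. The 3 called genes whose groups overlapped were Mrpl38, Mrpl17 and Mrps12. Of the 27 genes that did not pass, 22 had a negative log2 difference, and in 8 of them every PRC2 loss tumor lay below every wildtype tumor. Over all genes tested, called or not, this pattern was found in 21.4%, and its share among uncalled genes alone was not computed. With housekeeping centring all of these 8 but Mrps17 had a positive log2 difference. Corrected for exon length (log2 value minus log2 of the merged exon length in kilobases), the mean level was highest for Mrps21 in both groups, at 10.14 in PRC2 loss and 10.64 in wildtype tumors. The lowest was Mrpl47 in PRC2 loss (5.57, against 6.42 in wildtype) and Mrps35 in wildtype tumors (5.94 in PRC2 loss and 6.26 in wildtype). Next below Mrps21 came Mrpl27 and Mrpl10 in PRC2 loss (9.80 and 9.77) but Mrpl12 and Mrpl54 in wildtype tumors (10.33 and 10.25). The merged length counts every annotated exon of a gene, 0.739 kilobases for Mrps21 and 8.631 for Mrps35. This order therefore depends on the annotation.

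The promoters of the 4 genes with the largest falls among those with an entry in the RefSeq promoter table (GRCm38.p6, the assembly of mm10) and of Mrps9 are shown, because genes of this set are known to share binding motifs for factors of mitochondrial biogenesis. Each runs 5′ to 3′ on the strand of the gene, from 250 bases before the annotated start to 50 after it. Capitals mark matches, on either strand, to the core letters of 3 factors: TGCGCA for NRF1, CCGGAAG for ETS factors such as Gabpa, and AAGATGG for YY1.
Mrpl34: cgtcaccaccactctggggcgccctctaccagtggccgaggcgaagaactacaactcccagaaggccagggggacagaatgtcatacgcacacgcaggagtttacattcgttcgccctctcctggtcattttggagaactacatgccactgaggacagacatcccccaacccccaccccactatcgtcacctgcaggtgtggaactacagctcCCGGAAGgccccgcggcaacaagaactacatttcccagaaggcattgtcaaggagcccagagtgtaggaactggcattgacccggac
Mrpl21: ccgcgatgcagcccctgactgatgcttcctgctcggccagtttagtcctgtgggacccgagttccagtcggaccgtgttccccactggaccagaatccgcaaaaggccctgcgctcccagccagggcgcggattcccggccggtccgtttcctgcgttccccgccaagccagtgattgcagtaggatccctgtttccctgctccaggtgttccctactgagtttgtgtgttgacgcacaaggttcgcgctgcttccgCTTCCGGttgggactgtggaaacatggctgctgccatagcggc
Mrpl57: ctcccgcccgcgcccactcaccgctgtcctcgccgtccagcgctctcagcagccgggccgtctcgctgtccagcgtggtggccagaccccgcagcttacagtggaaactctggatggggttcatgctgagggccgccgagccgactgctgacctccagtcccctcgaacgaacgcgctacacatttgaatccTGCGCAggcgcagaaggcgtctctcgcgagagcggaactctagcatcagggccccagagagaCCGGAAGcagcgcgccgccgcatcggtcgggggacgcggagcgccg
Mrpl12: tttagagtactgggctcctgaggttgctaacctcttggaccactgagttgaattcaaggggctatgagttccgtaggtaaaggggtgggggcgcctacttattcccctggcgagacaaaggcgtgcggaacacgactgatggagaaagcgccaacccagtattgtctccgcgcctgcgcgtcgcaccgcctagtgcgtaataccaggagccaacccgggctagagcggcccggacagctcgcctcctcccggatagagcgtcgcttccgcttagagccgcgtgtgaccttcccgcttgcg
Mrps9: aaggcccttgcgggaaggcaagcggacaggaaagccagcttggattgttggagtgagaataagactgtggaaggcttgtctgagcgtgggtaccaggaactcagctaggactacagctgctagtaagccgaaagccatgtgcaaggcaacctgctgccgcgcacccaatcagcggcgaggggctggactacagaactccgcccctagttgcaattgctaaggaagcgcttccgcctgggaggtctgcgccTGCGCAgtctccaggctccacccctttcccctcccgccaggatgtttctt
They lie at chr8:71464676-71464975 (+ strand), chr19:3282792-3283091 (+ strand), chr14:57825989-57826288 (+ strand), chr11:120484387-120484686 (+ strand) and chr1:42850983-42851282 (+ strand). The ETS letters begin at position -37 in Mrpl34, at 8 in Mrpl21 (on the opposite strand) and at 5 in Mrpl57, counted from the start. The NRF1 letters begin at -58 in Mrpl57 and at 1 in Mrps9. Mrpl12 holds none of the 3 in this window.

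Over the 69 members with a promoter in the table and all 16197 promoters of tested genes, 1 promoter a gene, the ETS letters were found in 25 of 69 promoters (36.2%) against 13.5% of all, the NRF1 letters in 21 of 69 promoters (30.4%) against 11.4% of all and the YY1 letters in 13 of 69 promoters (18.8%) against 6.53% of all. A GC box, GGGCGG, was found in 34 of 69 promoters (49.3%) against 53% of all. The E-box CACGTG was found in 5 of 69 promoters (7.25%) against 9.03% of all and TATAAA in 4 of 69 promoters (5.8%) against 9.7% of all. The median GC content was 58.3% in members and 58.3% in all. Among the 43 members called lower 19 held the ETS letters (44.2%), and among the 26 others 6 did (23.1%). For NRF1 the counts were 11 (25.6%) and 10 (38.5%). These are matches of letters and were given no test. ETS and GC box matches overlapped in 2 member promoters, and no other pair of these motifs overlapped in any.

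Many of these genes are transcribed away from a close neighbor. In GENCODE M21, 33 of the 78 genes (42.3%) have a protein-coding gene on the opposite strand that starts within 1000 bases and runs the other way, against 12.6% of 17671 protein-coding genes tested. Mrpl46 and Mrps11 are such a pair and were both lower (1.49-fold and 1.47-fold). Of the 30 tested partners that are not members themselves, 9 (30%, against 19.6% of all genes tested) were lower, none was higher and 21 did not pass, with a median log2 difference of -0.33. With housekeeping centring 3 of them were lower and 3 higher, with a median of 0.21. Partners lower together with their mitochondrial neighbor included the mitotic gene Ska3 beside Mrpl57 (log2 difference -3.33), the condensin gene Ncapd2 beside Mrpl51 (-1.02), the chaperonin gene Tcp1 beside Mrpl18 (-0.96) and the proteasome gene Psma2 beside Mrpl32 (-0.74), named after their values were seen. Eme1, a DNA repair nuclease gene beside Mrpl27, was lower (log2 difference -3.69), and Mrpl27 did not pass (log2 difference -0.18). Exons of 33 of the 78 genes overlap another annotated gene, on the opposite strand in 28, and whether the counting used strand is not given in the sources, so reads of such pairs cannot be told apart. The 33 genes are Mrpl10, Mrpl12, Mrpl13, Mrpl14, Mrpl18, Mrpl19, Mrpl21, Mrpl24, Mrpl27, Mrpl3, Mrpl33, Mrpl36, Mrpl43, Mrpl44, Mrpl46, Mrpl47, Mrpl48, Mrpl49, Mrpl51, Mrpl53, Mrpl58, Mrpl9, Mrps11, Mrps18b, Mrps18c, Mrps24, Mrps25, Mrps26, Mrps27, Mrps30, Mrps34, Mrps6 and Mrps7. Of the 10 genes with the largest falls these include Mrpl21 (with Ighmbp2), Mrpl12 (with Gm16755), Mrps18b (with Gm16279) and Mrpl18 (with Tcp1). Of these 33 genes 22 were lower, and of the 45 without overlap 28 were.

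On the deposited scale, the share of genes called lower among those that work with the mitochondrial ribosome lay above the 19.6% of all genes tested in some lists and below it in others, and housekeeping centring turned the direction of several lists. Of 5 ribosomal proteins with names outside the Mrpl and Mrps pattern 3 were lower, namely Gadd45gip1 (1.81-fold), Chchd1 (1.62-fold) and Ptcd3 (1.5-fold), and none was higher. Of 27 ribosome assembly factors 8 (29.6%) were lower and none was higher (median log2 difference -0.42), led by the GTPase gene Noa1, the ribosomal RNA methyltransferase gene Tfb1m and the matrix protein gene C1qbp, 2.51-fold, 2.47-fold and 2.54-fold lower. Of 15 translation factors and messenger RNA binding proteins 7 (46.7%) were lower and none was higher (median -0.62). Lrpprc, which stabilizes mitochondrial messenger RNA, the elongation factor gene Tsfm and the translational activator gene Taco1 were 1.91-fold, 2.73-fold and 2.41-fold lower. Of 20 genes that charge mitochondrial transfer RNA, 17 for aminoacyl-tRNA synthetases and 3 for subunits of the GatCAB amidotransferase (Gatb, Gatc and Qrsl1), 2 synthetase genes were lower, Yars2 (2.43-fold) and Mars2 (2.03-fold). This share lay below that of all genes tested, and the median log2 difference was -0.28 (-0.27 over the 17). Of 12 genes that transcribe or copy mitochondrial DNA 1 (8.33%) was lower, the elongation factor gene Tefm (2.75-fold), and 1 higher, the DNA polymerase gene Polg (1.31-fold), while the transcription factor gene Tfam did not pass (log2 difference -0.43, limma adjusted p = 0.131). With housekeeping centring the outside-pattern proteins had 0 lower and 0 higher, median -0.05, the assembly factors 3 lower and 6 higher, median 0.12, the translation factors 1 lower and 3 higher, median -0.09, the transfer RNA charging genes 1 lower and 3 higher, median 0.25 and the mitochondrial DNA genes 1 lower and 4 higher, median 0.39.

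Set beside related machines, 26 of 74 nuclear genes for oxidative phosphorylation subunits (35.1%) were lower and none was higher (median log2 difference -0.36), among them Cox5a and Cox7b of cytochrome oxidase and Atp5g2 of ATP synthase (2.17-fold, 1.73-fold and 2.26-fold). For the cytosolic ribosome 14 of 79 genes (17.7%) were lower, close to the 19.6% of all genes tested, and none was higher (median -0.38), with Rpl30, Rps2 and Rpl15 2.18-fold, 2.21-fold and 1.67-fold lower. Because many of these genes have near-identical processed copies in the genome, their values are less certain. GENCODE M21 also names 5 pseudogenes of Mrpl and Mrps genes, whose part in the values was not tested. The mitochondrial ribosome, with 50 of 78 lower and a median of -0.64, was not tested against these lists. With housekeeping centring the oxidative phosphorylation genes had 5 lower and 14 higher, median 0.17, the cytosolic ribosomal genes 3 lower and 7 higher, median 0.16 and the regulators that follow 2 lower and 4 higher, median 0.38. On the deposited scale 3 of 9 regulators of mitochondrial biogenesis were lower and none was higher, with a median log2 difference of -0.15, against -0.12 for all genes. Myc, which promotes growth and ribosome production, was 4.54-fold lower, the coactivator gene Pprc1 2.89-fold and the nuclear receptor gene Esrra 1.6-fold. Ppargc1a, the coactivator best known for raising mitochondrial biogenesis, had a log2 difference of 1.39 and did not pass (limma adjusted p = 0.0684). The genes of the factors whose motifs are described above did not pass: Nrf1 averaged 10.38 ± 0.10 in PRC2 loss and 10.29 ± 0.09 in wildtype tumors, Gabpa 11.40 ± 0.17 in PRC2 loss and 11.41 ± 0.08 in wildtype tumors, and Yy1 12.09 ± 0.47 in PRC2 loss and 11.94 ± 0.07 in wildtype tumors (SD, n = 3 and 5; limma adjusted p = 0.554, 0.937 and 0.577).

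**Figure D4:**
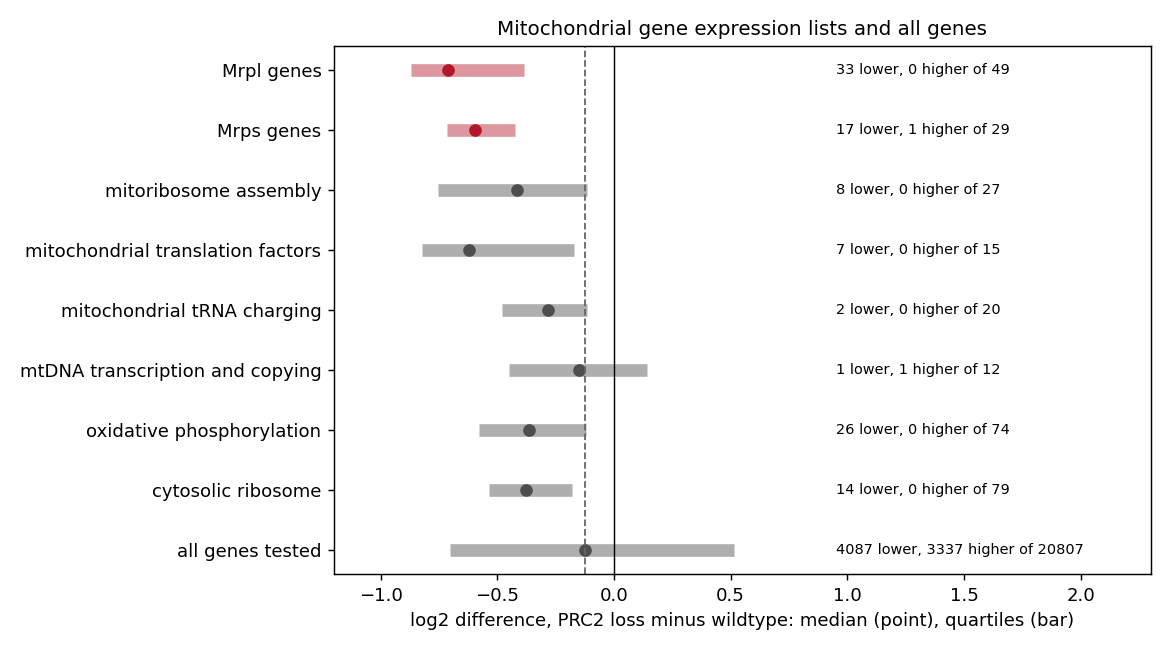
Median (point) and quartiles (bar) of the log2 difference, PRC2 loss minus wildtype, for the Mrpl and Mrps genes, for 6 lists of related genes and for all genes tested, with the number called in each direction at the right; the dashed line is the median of all genes. The Mrpl and Mrps medians are -0.71 and -0.60; housekeeping centring moves every list to the right by the same amount, to -0.18 and -0.06 for these 2 and 0.41 for all genes, and turns the medians of 5 of the 6 related lists positive.

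Tumors that share an animal number may not be independent, and the p-values above measure the spread between tumors. With the tumors of 1 animal number averaged, 29 of the 78 genes were lower and none was higher (10.2% of all genes tested lower and 10.2% higher), and the median log2 difference was -0.69. The 21 genes that lost their call in this way were Mrpl11, Mrpl15, Mrpl22, Mrpl35, Mrpl38, Mrpl40, Mrpl42, Mrpl45, Mrpl46, Mrpl47, Mrpl49, Mrps11, Mrps12, Mrps16, Mrps18c, Mrps2, Mrps28, Mrps30, Mrps33, Mrps34 and Mrps7. Without wildtype tumor 5 and PRC2 loss tumor 1, 27 were lower (11.6% of all genes tested) and the median was -0.59. These 2 tumors were chosen because they express Y-linked genes, whose values are not given here. The 2 PRC2 loss tumors left in that fit share 1 animal number, so it holds no spread between PRC2 loss animal numbers. Without wildtype tumors 1 and 2 and PRC2 loss tumor 3, which carried the most muscle marker RNA, 37 were lower (15.9% of all genes tested) and the median was -0.71.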

How the data were processed

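Trizol RNA of the 8 tumors went into TruSeq poly-A libraries, per the labels' protocols. Trim Galore, STAR 2.6, Partek 7.0 and the mm10 build were used, per the submitters' processing notes. How reads were counted, on which annotation and with what use of strand was not given in the sources used here. Deposited by the authors were quantile-normalized log2 gene counts for 20943 symbols. The table has no library totals, so depth is unknown and no counting interval is given. Fold changes are the antilog of a log2 difference; any offset added by the authors before the log is not stated and would make folds of low genes too small.

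Groups follow the PRC2 status that the sample titles give. After 136 constant genes were left out, 20807 were tested with limma 3.58.1 (R 4.3.3): a linear model with a trended empirical Bayes variance, two-sided, Benjamini-Hochberg adjusted over all genes, threshold 0.05. The procedure was tested on simulated data in which all tumors were independent and no difference in scaling was built in. That test therefore does not cover shared animal numbers or the choice of scaling. Genes are named by rule: the 10 largest called changes in each direction, the 3 highest and 3 lowest means, members at 0, members called against the majority, landmarks by role, and up to 3 genes of each other list by smallest p; other genes named were chosen after their values were seen. The members, lists, roles and motifs were chosen with earlier results of these data known. Alternatives were other scalings, pseudocounts of 1 and 16, a filter on low genes, other variance priors, array weights, animal number averaged or as a block, the replicate number as a block, and leaving out tumors. Gene positions are from GENCODE M21, promoters from RefSeq.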

Additional observations from a re-analysis of the deposited data

Results flagged for a closer look

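In 4 of 79 genes examined (the 78 members and Eed), 1 wildtype tumor lay far from the other 4; about 1 group in 20 is expected to show this by chance. Wildtype tumor 4 was the highest for Mrpl11, at 10.38 with the next at 10.08, and for Mrpl42, at 11.27 with the next at 10.70. Wildtype tumor 3 was the lowest for Mrpl24, at 10.33 with the next at 10.72, and for Mrps15, at 9.85 with the next at 10.02. Mrpl11, Mrpl42 and Mrps15 were called lower in PRC2 loss with all tumors; Mrpl24 did not pass. Without the tumor in question the log2 difference was -0.74 for Mrpl11, -0.50 for Mrpl42, -0.995 for Mrps15 and -0.34 for Mrpl24 (limma adjusted p = 0.0235, 0.0148, 0.00504 and 0.231).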

How the results depend on the processing

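Leaving out each tumor in turn gave 37 to 53 of the 78 genes lower, 0 or 1 higher, medians from -0.69 to -0.58 and 5547 to 7694 genes called in all. The fit without PRC2 loss tumor 1 holds PRC2 loss tumors of 1 animal number only. In all 8 fits that leave out 1 tumor, 32 genes were lower. The other 18 calls were lost at least once; the highest limma adjusted p was reached without PRC2 loss tumor 1 for Mrpl17 (0.142), Mrpl33 (0.0608), Mrpl38 (0.149), Mrpl40 (0.0927), Mrpl49 (0.0687), Mrps16 (0.136), Mrps34 (0.0896), without PRC2 loss tumor 2 for Mrpl42 (0.0911), Mrpl45 (0.113), Mrps23 (0.0689), Mrps28 (0.0591), Mrps7 (0.127), without PRC2 loss tumor 3 for Mrpl15 (0.092), Mrpl22 (0.0548), Mrps11 (0.0818), Mrps12 (0.13), Mrps2 (0.0572), Mrps33 (0.0786). The Eed call and direction held in every alternative run. The median of the 78 genes was negative in every alternative run and moved by more than the spread between wildtype tumors with housekeeping centring alone (-0.10). That centring gave 8 genes lower and 6 higher (Mrpl4, Mrpl23, Mrpl30, Mrpl44, Mrpl48 and Mrps9), and turned the log2 difference positive for 22 genes: Mrps21 0.0384, Mrpl20 0.041, Mrps24 0.0532, Mrpl28 0.0576, Mrpl10 0.0998, Mrpl58 0.11, Mrps26 0.11, Mrps27 0.11, Mrps5 0.13, Mrpl15 0.15, Mrps33 0.16, Mrpl39 0.16, Mrpl41 0.19, Mrpl37 0.20, Mrps14 0.20, Mrps18a 0.21, Mrps35 0.22, Mrpl24 0.29, Mrpl50 0.32, Mrpl27 0.35, Mrpl9 0.37 and Mrps31 0.40. Mrpl15 and Mrps33 were called lower without it; none of the 22 passed with it. Animal numbers averaged gave 29 lower, 0 higher and 4226 genes called in all, with Mrpl23 at -0.0217 and Mrpl30 at -0.00977; animal number as a random block gave 37 lower and 0 higher. Leaving out genes below the median mean tested 10404 genes, and 4248 were called. Array weights, no variance trend and a robust prior each gave 0 higher, since Mrps9 missed the threshold. Chosen after seeing the data, the fit without wildtype tumor 5 and PRC2 loss tumor 1 gave 27 lower, 0 higher and 4580 called in all, and the fit without wildtype tumors 1 and 2 and PRC2 loss tumor 3 gave 37 lower and 0 higher, with Mrpl23, Mrpl30, Mrpl4 and Mrpl44 at -0.0765, -0.0828, -0.00474 and -6.67e-05. The range on leaving out each tumor was -0.0414 to 0.0927 for Mrpl4, -0.0548 to 0.27 for Mrpl23, -0.0989 to 0.18 for Mrpl30 and -0.0243 to 0.12 for Mrpl44. Same-numbered tumors had correlations of their deviations from the group means of -0.155, 0.0945 and -0.0482. These values cannot settle whether the replicate numbers pair the tumors. With the replicate number as a block over tumors 1 to 3 of each group, 2 genes were lower (Mrpl18 and Mrps10), 0 higher and 1892 called in all; the same 6 tumors without the block gave 31 lower.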
